A study of Homo sapiens with 12 samples.

Results

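The mitochondrial genome is a circle of 16569 bases in the hg38 reference (chromosome M), and it encodes 37 genes. All rows of the count table whose symbol starts with MT- were taken, which gave 37 of the 60612 gene rows used: 13 mRNAs, 2 rRNAs and 22 tRNAs. Membership rested on the symbol alone, but the set itself was chosen with earlier results of these data known. The RNA was from ZR-75-1, an oestrogen receptor-positive human breast cancer cell line, after CRISPR–Cas9 delivery. The methods of the study describe knockout clones grown from single sorted cells, and do not state whether the control cells are a clone. Control cells had a non-targeting guide RNA (sgControl) and the others a guide against *RB1* (*RB1* knockout), the gene of the retinoblastoma protein Rb. Cells received 500 nM abemaciclib, an inhibitor of CDK4 and CDK6, or the solvent DMSO, for 5 days, and each of the 4 groups had 3 samples. A knockout clone also differs from the control cells by whatever else separates clones, so genotype and clone cannot be told apart.

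Mitochondrial DNA is transcribed from both strands as long precursors, which are cut mostly at the tRNAs that lie between the other genes. Most genes are transcribed from the heavy strand, and *MT-ND6* is the mRNA of the light strand. The mRNAs encode core subunits of respiratory complexes I (the ND genes), III (*MT-CYB*) and IV (the CO genes) and of the ATP synthase, complex V (the ATP genes), whereas the rRNAs and tRNAs serve the mitochondrial ribosome. All other subunits and all proteins of mitochondrial transcription come from nuclear genes. Here a heavy-strand transcript means an RNA that the annotation places on the forward strand of the reference, and a light-strand transcript one on the reverse strand. By that definition 28 members were heavy-strand transcripts (12 mRNAs, both rRNAs and 14 tRNAs) and 9 were light-strand transcripts (*MT-ND6* and 8 tRNAs).

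The genes lie close together, and 5 stretches show how their ends meet. All sequences were read from the hg38 chromosome M. *MT-ND5* (chrM:12337-14148, forward strand) and *MT-ND6* (chrM:14149-14673, reverse strand) meet tail to tail with no base between them. The stretch chrM:14089-14208 is printed on the forward strand, with the *MT-ND6* end in capitals. The beginning of the *MT-ND6* mRNA strand (chrM:14554-14673, reverse strand) is printed with its first codon in capitals. *MT-ATP8* and *MT-ATP6* share 46 bases within chrM:8490-8609, *MT-ND4L* and *MT-ND4* share 7 bases within chrM:10720-10806, and *MT-TI* shares 3 bases with *MT-TQ*, which is on the other strand, within chrM:4289-4371; the shared bases are in capitals.

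MT-ND5 and MT-ND6: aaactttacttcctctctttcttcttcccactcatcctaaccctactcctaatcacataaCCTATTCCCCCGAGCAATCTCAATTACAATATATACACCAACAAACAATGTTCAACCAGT

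MT-ND6 start: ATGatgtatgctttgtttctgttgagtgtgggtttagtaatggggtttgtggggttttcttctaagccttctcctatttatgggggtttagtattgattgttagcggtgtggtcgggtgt

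MT-ATP8 and MT-ATP6: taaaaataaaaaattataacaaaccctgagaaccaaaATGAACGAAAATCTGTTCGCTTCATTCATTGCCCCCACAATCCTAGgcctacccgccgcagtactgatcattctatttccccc

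MT-ND4L and MT-ND4: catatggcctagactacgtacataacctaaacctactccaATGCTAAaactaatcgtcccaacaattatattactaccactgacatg

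MT-TI and MT-TQ: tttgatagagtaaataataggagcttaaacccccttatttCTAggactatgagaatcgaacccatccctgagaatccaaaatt

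Libraries held 39907318 to 81636393 counts, and no samples of a group agreed within sampling noise. *RB1* had 29 to 63 raw counts in the knockout libraries and 2090 to 7543 in the sgControl libraries. Of the markers of this luminal line, ESR1, GATA3, FOXA1, EPCAM, KRT8 and KRT18 were each above 100 CPM (counts scaled to library size) in every library. VIM, PTPRC, KRT5 and PECAM1, which mark other cell types, stayed at 5 raw counts or fewer, whereas the fibroblast marker COL1A1 reached 34.5 to 51.9 CPM. RN7SK, an abundant RNA without a poly(A) tail, was at 0 in every library. In sgControl cells in DMSO, replicate 3 was the deepest library and had the lowest share of mitochondrial counts, 2.82% of all counts against 3.99% and 3.66%, and it is named below where a result rests on it.

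In sgControl cells most mitochondrial transcripts were higher after abemaciclib, but *MT-ND6* and most light-strand tRNAs did not pass the test described below. The 13 mRNAs held 2.63% ± 0.40 (SD, n = 3) of all counts in DMSO and 5.67% ± 0.44 in abemaciclib, and the 2 rRNAs held 0.858% ± 0.213 and 2.06% ± 0.27. In *RB1*-knockout cells the same shares were 2.99% ± 0.11 and 4.78% ± 0.84 for the mRNAs, and 0.989% ± 0.069 and 1.35% ± 0.25 for the rRNAs. On summed normalised counts the mRNAs were 2.37-fold, the rRNAs 2.67-fold and the tRNAs 2.32-fold higher in sgControl cells, and 1.58-fold, 1.35-fold and 1.86-fold higher in knockout cells. These sums were not tested. No spiked RNA standard is described, so more mitochondrial RNA and less nuclear RNA per cell cannot be told apart, nor can fewer cells of a kind and less RNA per cell.

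**Figure D1:**
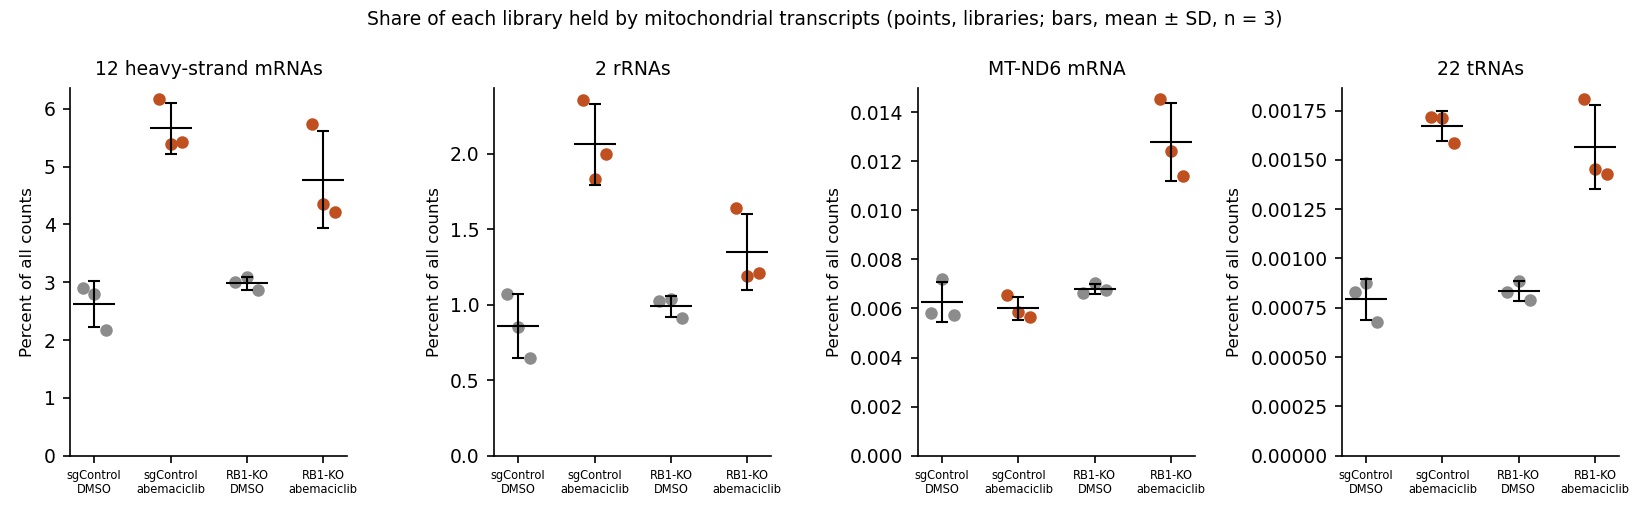
Percent of all counts (vertical axes, each from 0) held by the 12 heavy-strand mRNAs, the 2 rRNAs, MT-ND6 and the 22 tRNAs in each library of the 4 groups; points are libraries, grey in DMSO and orange in abemaciclib, and bars are mean ± SD. Heavy-strand mRNAs, rRNAs and tRNAs sit higher in abemaciclib in both genotypes, whereas MT-ND6 sits higher only in the RB1-knockout libraries.

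Of the 37 members, 33 entered the test of abemaciclib against DMSO in sgControl cells, after the independent filter of DESeq2 removed 4 tRNAs. At an adjusted p under 0.05, 22 rose and 0 fell (DESeq2), where 25.0% of all genes tested rose and 49.8% changed in either direction. By class, 12 of 13 mRNAs, both rRNAs and 8 of 18 tested tRNAs rose. By strand, 20 of 24 tested heavy-strand transcripts rose, with a median log2 fold change of 1.23, and 2 of 9 light-strand transcripts rose, with a median of 0.22. The median over all genes tested was 0.01. In *RB1*-knockout cells 31 members were tested, of which 14 rose and 0 fell, where 14.9% of all genes rose and 30.0% changed. These were 11 of 13 mRNAs, 0 of 2 rRNAs and 3 of 16 tested tRNAs. The tests of both genotypes come from 1 model and do not share control samples.

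**Figure D2:**
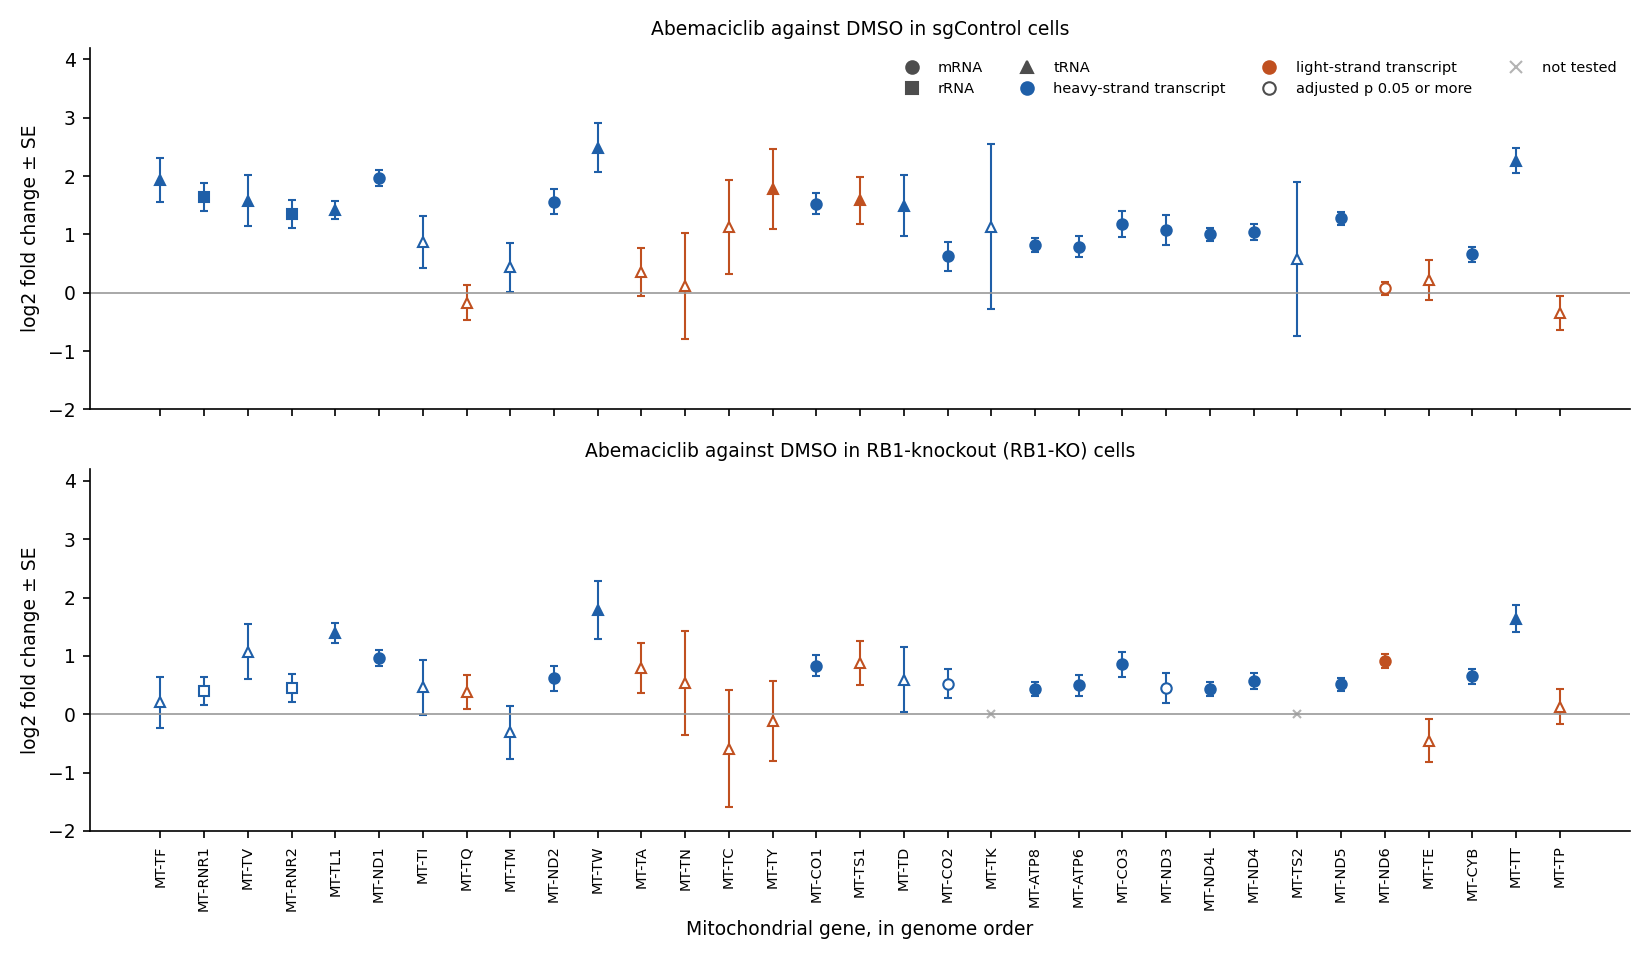
Log2 fold change ± SE of abemaciclib against DMSO (vertical axes) for the 33 members tested in sgControl cells, in genome order, above for sgControl and below for RB1-knockout cells; blue marks heavy-strand and orange light-strand transcripts, and open symbols had an adjusted p of 0.05 or more. In sgControl cells the filled blue symbols lie between 0.63 and 2.49 and MT-ND6 lies at 0.07; in knockout cells MT-ND6 lies at 0.91, above 11 of the 12 other mRNAs.

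*MT-ND6*, the complex I subunit on the light strand, had the smallest response of the mRNAs in sgControl cells. Its normalised counts were 3368, 3916 and 2957 in DMSO and 4040, 3418 and 3318 in abemaciclib, so the groups overlapped. The log2 fold change was 0.07 ± 0.12 (SE; adjusted p = 0.645), and it lay between -0.06 and 0.18 over 19 alternative analyses without passing the test in any of them. In *RB1*-knockout cells the counts were 3619, 3978 and 3684 in DMSO and 8193, 6754 and 6231 in abemaciclib, and every treated library was above every control library. There *MT-ND6* rose by a log2 fold change of 0.91 ± 0.12 (adjusted p = 2.76e-13). The difference between the responses was 0.83 ± 0.17 (adjusted p = 2.32e-06), and it kept its call in every alternative run. In abemaciclib *MT-ND6* was 1.97-fold higher in knockout than in sgControl cells (log2 0.97 ± 0.12, adjusted p = 3.32e-16), whereas in DMSO the log2 difference was 0.14 ± 0.12 (adjusted p = 0.369).

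The neighbours of *MT-ND6* on the heavy strand moved otherwise. *MT-ND5*, a proton-pumping subunit of complex I that ends at the base before *MT-ND6*, had normalised counts of 84849, 100417 and 78574 in DMSO-treated sgControl cells and 241935, 205456 and 192424 in abemaciclib. In knockout cells its counts were 122185, 129965 and 118662 in DMSO and 202886, 170115 and 156396 in abemaciclib. It rose in both genotypes, by 1.28 ± 0.11 (adjusted p = 1.81e-29) and 0.51 ± 0.11 (adjusted p = 3.87e-05) in log2 units. *MT-CYB*, the mitochondrial subunit of complex III, lies on the other side of *MT-ND6* beyond *MT-TE*. *MT-CYB* rose by 0.66 ± 0.13 in sgControl cells (adjusted p = 2.53e-06) and 0.65 ± 0.13 in knockout cells (adjusted p = 1.13e-05), and these responses differed by -0.01 ± 0.19 (adjusted p = 0.976).

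**Figure D3:**
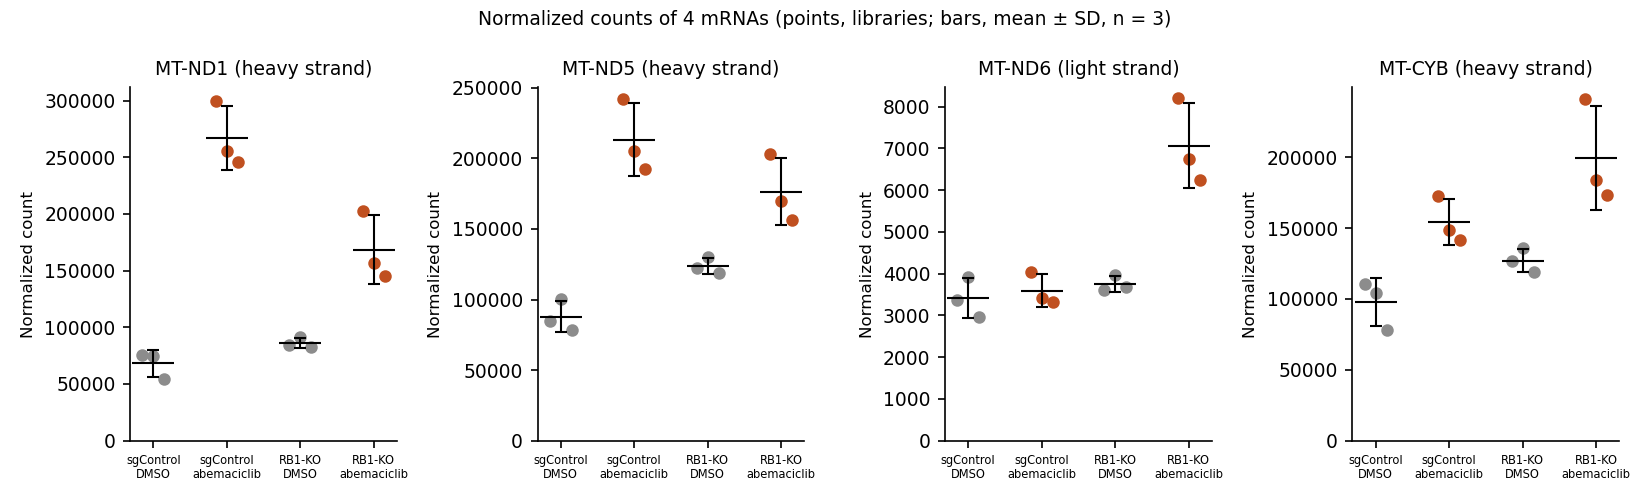
Normalised counts (vertical axes, each from 0) of MT-ND1, MT-ND5, MT-ND6 and MT-CYB in each library of the 4 groups; points are libraries, grey in DMSO and orange in abemaciclib, and bars are mean ± SD. MT-ND1 and MT-ND5 are highest in the sgControl libraries in abemaciclib, whereas MT-ND6 is highest in the RB1-knockout libraries in abemaciclib, at 6231 to 8193.

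Ratios within a library do not depend on the scaling between libraries. Counts of *MT-ND6* were 0.200%, 0.257% and 0.265% of those of the 12 heavy-strand mRNAs in DMSO-treated sgControl cells, and 0.106%, 0.109% and 0.104% in abemaciclib. In knockout cells the shares were 0.221%, 0.228% and 0.235% in DMSO and 0.254%, 0.285% and 0.271% in abemaciclib. Thus the sgControl libraries in abemaciclib lay below the other 9 libraries, without overlap. Per kilobase of gene, the level of *MT-ND6* was 13.4% ± 0.36 (SD, n = 3) of that of *MT-ND5* in DMSO-treated sgControl cells, 5.82% ± 0.12 in abemaciclib, 10.5% ± 0.25 in knockout cells in DMSO and 13.8% ± 0.12 in abemaciclib. Transcripts of the heavy strand are known to run on past the end of *MT-ND5*, opposite *MT-ND6*, and the counting is not stated to use strand. Reads of such RNA and of *MT-ND6* mRNA cannot then be told apart. *MT-ND6* mRNA is also known to lack a poly(A) tail, and whether RNA was selected by its tail is not stated; what part either has in the values was not tested.

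The summed counts of light-strand tRNAs were also lower relative to those of heavy-strand tRNAs after abemaciclib, here in both genotypes. Summed over the 8 light-strand tRNAs, counts were 69.4%, 69.3% and 54.9% of those of the 14 heavy-strand tRNAs in DMSO-treated sgControl cells, and 24.7%, 23.3% and 24.4% in abemaciclib. In knockout cells the ratios were 61.5%, 86.1% and 73.9% in DMSO and 35.1%, 38.6% and 41.8% in abemaciclib. The treated libraries lay below the DMSO libraries in each genotype, and in abemaciclib the sgControl libraries lay below the knockout libraries. In knockout cells the light-strand tRNAs summed to 196 ± 32 normalised counts (SD, n = 3) in DMSO and 238 ± 24 in abemaciclib. The heavy-strand tRNAs summed to 266 ± 16 and 625 ± 113. Most of that was *MT-TL1* (means 126 and 330) and *MT-TT* (52 and 163), so the lower ratio rests largely on these genes. Whether it holds without them was not tested. In knockout cells *MT-ND6* thus had a higher and the light-strand tRNA sum a lower ratio to heavy-strand counterparts after treatment. This contrast was not tested.

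**Figure D4:**
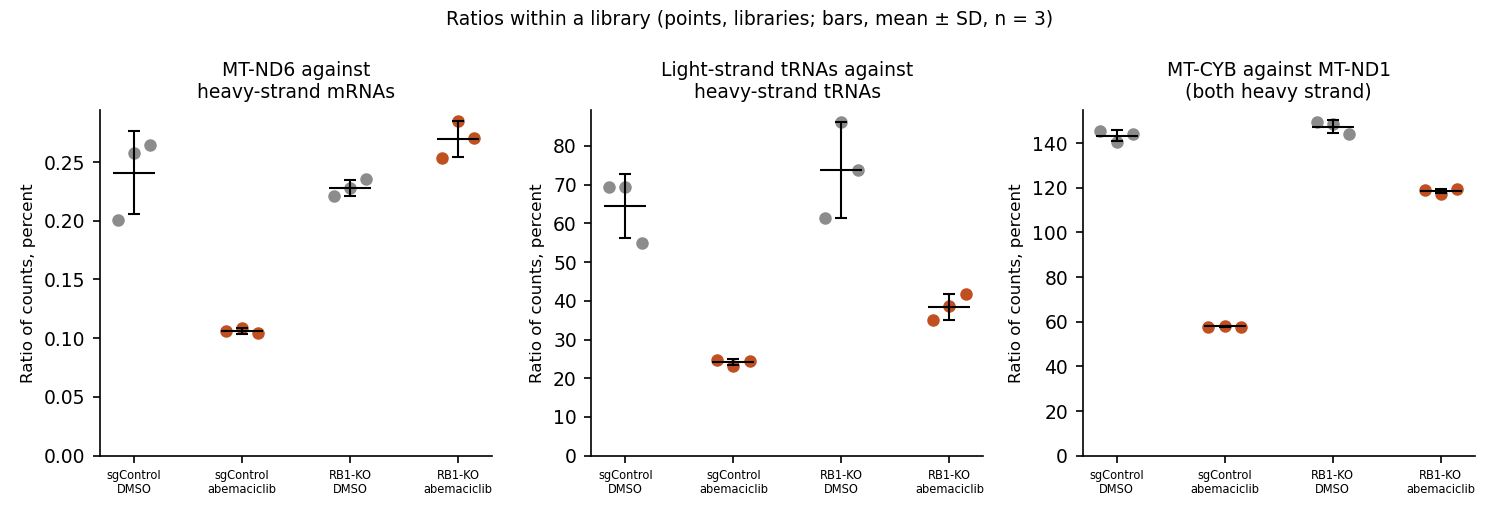
Ratios of counts within each library, in percent (vertical axes from 0), of MT-ND6 to the 12 heavy-strand mRNAs, of light-strand to heavy-strand tRNAs and of MT-CYB to MT-ND1; points are libraries, grey in DMSO and orange in abemaciclib, and bars are mean ± SD. The sgControl libraries in abemaciclib are the lowest in all 3 panels, at 0.104% to 0.109%, 23.3% to 24.7% and 57.5% to 58.3%.

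Among the 12 heavy-strand mRNAs the response in sgControl cells differed in size, from a log2 fold change of 0.63 to 1.97. *MT-ND1*, a membrane subunit of complex I, had the largest. Its normalised counts were 75913, 74351 and 54414 in DMSO and 299248, 255187 and 245977 in abemaciclib, a rise of 3.91-fold (log2 1.97 ± 0.13, adjusted p = 9.28e-49). In knockout cells *MT-ND1* had 84614, 91412 and 82724 in DMSO and 202788, 157040 and 145095 in abemaciclib, a rise of 1.95-fold (log2 0.96 ± 0.13, adjusted p = 1.01e-11). The responses differed by -1.003 ± 0.19 (adjusted p = 4.9e-07). *MT-ND1* lay next to the rRNAs in the genome, and *MT-ND2* (1.56 ± 0.22) and *MT-CO1* (1.52 ± 0.18), the next mRNAs along the strand, followed it in size.

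*MT-CO1*, the catalytic subunit of complex IV, had the highest level per kilobase of the mRNAs, and *MT-ND6* the lowest, at 7885 and 152 CPM per kilobase over all libraries. Normalised counts of *MT-CO1* were 493123, 455383 and 335640 in DMSO-treated sgControl cells and 1407191, 1131148 and 1157042 in abemaciclib. In knockout cells they were 405295, 425478 and 374681 in DMSO and 872884, 645021 and 627857 in abemaciclib. *MT-CO1* rose by 0.83 ± 0.18 in knockout cells (adjusted p = 3.54e-05), and the responses differed by -0.69 ± 0.25 (adjusted p = 0.0174). Without *RB1*-knockout DMSO replicate 2 this difference had an adjusted p of 0.0562. *MT-CO1* held 29.7% ± 0.38 (SD, n = 3) of mitochondrial mRNA counts in DMSO-treated sgControl cells and 36.3% ± 0.47 in abemaciclib, and 24.3% ± 0.42 and 27.1% ± 0.12 in knockout cells.

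The mRNAs with the smaller responses were those of the ATP synthase, *MT-CO2* and *MT-CYB*. *MT-ATP8* and *MT-ATP6*, whose ends overlap as printed above, rose by 0.81 ± 0.12 and 0.79 ± 0.18 in sgControl cells and by 0.43 ± 0.12 and 0.50 ± 0.18 in knockout cells. *MT-CO2*, the complex IV subunit that receives electrons from cytochrome c, rose by 0.63 ± 0.25 in sgControl cells (adjusted p = 0.024). Its log2 fold change of 0.52 ± 0.25 in knockout cells did not pass (adjusted p = 0.0971), but it passed with edgeR, with total-count size factors, with the replicate number as a block, when only the groups compared were fitted, and without sgControl DMSO replicate 1 or 3 (adjusted p between 0.0230 and 0.0437). *MT-CO2* lost its call in sgControl cells when only the groups compared were fitted or when DMSO replicate 2 or 3 or abemaciclib replicate 1 or 3 was left out, with an adjusted p of up to 0.102. Of the other heavy-strand mRNAs, *MT-CO3*, *MT-ND3*, *MT-ND4L* and *MT-ND4* rose by 1.00 to 1.18 in sgControl cells, and in knockout cells *MT-ND3* did not pass (0.45 ± 0.26, adjusted p = 0.182). *MT-ATP8* lost its call in knockout cells without abemaciclib replicate 1 (adjusted p = 0.0523), *MT-ND2* without DMSO replicate 1 or 3 (up to 0.0831) and *MT-ATP6* without any 1 of the 3 DMSO replicates or abemaciclib replicate 1, or when only the groups compared were fitted with the replicate block (up to 0.0854).

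The make-up of the mRNA pool shifted with these unequal responses. *MT-ND1* held 4.75% ± 0.21 (SD, n = 3) of mitochondrial mRNA counts in DMSO-treated sgControl cells and 7.88% ± 0.21 in abemaciclib, while *MT-CYB* held 6.80% ± 0.23 and 4.56% ± 0.15. In knockout cells *MT-ND1* held 5.22% ± 0.06 and 6.38% ± 0.19, and *MT-CYB* 7.68% ± 0.08 and 7.56% ± 0.16. The ratio of *MT-CYB* to *MT-ND1* counts was 145%, 140% and 144% in DMSO-treated sgControl cells and 57.7%, 58.3% and 57.5% in abemaciclib, against 149%, 148% and 144% and then 119%, 117% and 119% in knockout cells. Both genes are read from the heavy strand, so this ratio does not compare strands. Across the 12 heavy-strand mRNAs, the Spearman correlation of the log2 fold change in sgControl cells with the start position was -0.43 and that with gene length 0.43. The 12 genes share libraries and precursors, and these coefficients describe them only.

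**Figure D5:**
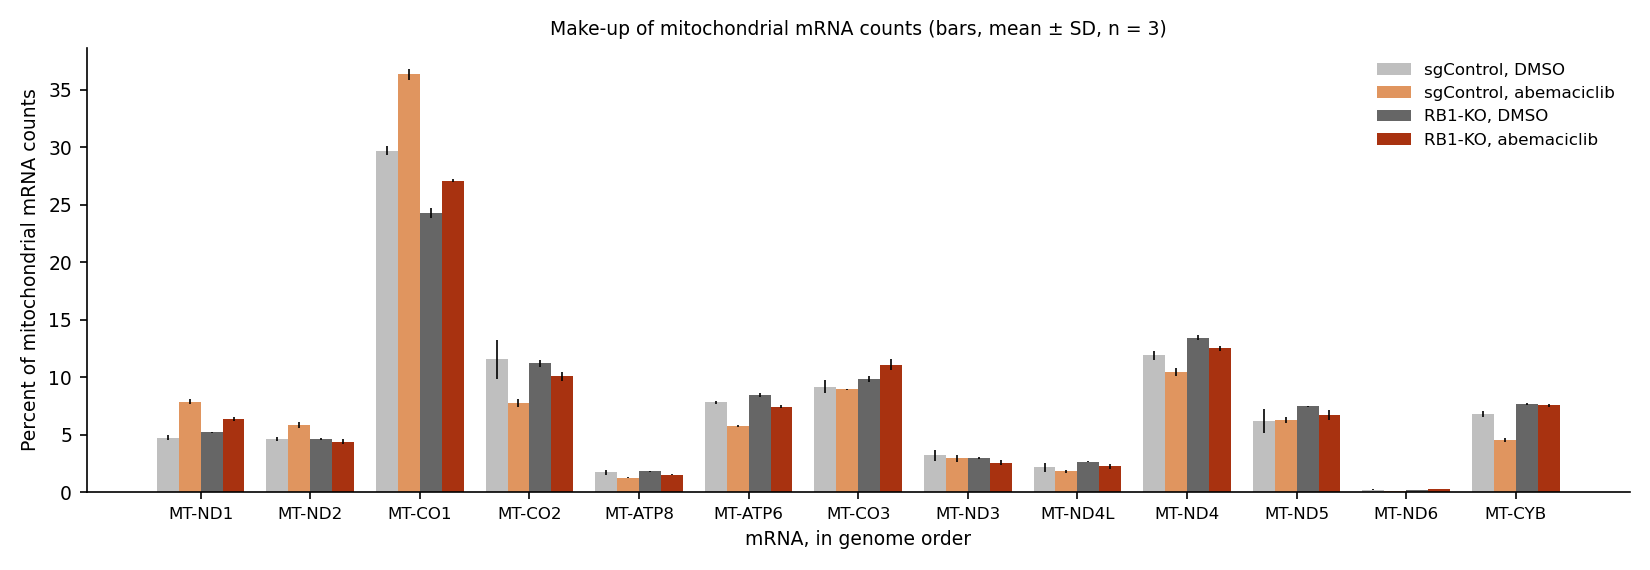
Percent of mitochondrial mRNA counts (vertical axis from 0) held by each of the 13 mRNAs in genome order, with a bar for each of the 4 groups (mean ± SD, n = 3). MT-CO1 rises from 29.7% to 36.3% and MT-ND1 from 4.75% to 7.88% in sgControl cells after abemaciclib, and MT-CO2, MT-ATP6 and MT-CYB hold smaller shares there than in the other groups.

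The rRNAs rose in sgControl cells and did not pass the test in knockout cells. *MT-RNR1*, the 12S rRNA of the small ribosomal subunit, had normalised counts of 60742, 45881 and 31785 in DMSO-treated sgControl cells and 172141, 124205 and 134602 in abemaciclib (log2 1.64 ± 0.24, adjusted p = 4.09e-11). In knockout cells it had 55962, 58221 and 52875 in DMSO and 89198, 65311 and 66276 in abemaciclib (0.40 ± 0.24, adjusted p = 0.21). *MT-RNR2*, the 16S rRNA of the large subunit, had 559329, 419093 and 300609 in DMSO-treated sgControl cells and 1284214, 945336 and 1041794 in abemaciclib (1.35 ± 0.24, adjusted p = 9.85e-08). In knockout cells *MT-RNR2* had 501315, 527597 and 444637 in DMSO and 834986, 584140 and 595058 in abemaciclib (0.45 ± 0.24, adjusted p = 0.158). Treated and untreated libraries did not overlap in either genotype for either rRNA.

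Both rRNA responses differed between the genotypes, by -1.24 ± 0.34 for *MT-RNR1* (adjusted p = 0.00095) and -0.90 ± 0.34 for *MT-RNR2* (adjusted p = 0.0226). The *MT-RNR2* difference lost its call when any 1 of 6 libraries was left out: replicate 2 of sgControl in DMSO, replicate 1 of sgControl in abemaciclib, replicates 1 and 2 of the knockout in DMSO, and replicates 2 and 3 of the knockout in abemaciclib (adjusted p up to 0.0756). *MT-RNR1* passed in the knockout response when only the groups compared were fitted (adjusted p = 0.0344), and *MT-RNR2* passed there with the replicate number as a block (adjusted p = 0.048). Counts of the rRNAs were 32.3% ± 3.9 (SD, n = 3) of those of the mRNAs in DMSO-treated sgControl cells, 36.3% ± 2.1 in abemaciclib, 33.0% ± 1.2 in knockout cells in DMSO and 28.2% ± 0.75 in abemaciclib. *MT-RNR1* had 10.8% ± 0.20 of the counts of *MT-RNR2* in DMSO-treated sgControl cells and 13.2% ± 0.24 in abemaciclib, whereas in knockout cells the values were 11.4% ± 0.46 and 11.0% ± 0.28.

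The tRNAs were measured far less deeply, with 331 to 1129 counts per library over all 22 and 0.0201% to 0.0263% of mitochondrial counts. *MT-TG*, *MT-TR*, *MT-TH* and *MT-TL2* never exceeded 3 counts in a library, so no level or change was detectable for them at this depth. Mature tRNAs are short and folded, and a standard library does not capture them well. The genes shown here are printed 5′ to 3′ on their sense strand: the heavy-strand tRNAs with the largest responses in sgControl cells (*MT-TW*, chrM:5512-5579, and *MT-TT*, chrM:15888-15953) and with the lowest interaction among those that passed (*MT-TF*, chrM:577-647), and the light-strand tRNAs with negative log2 fold changes (*MT-TQ*, chrM:4329-4400, and *MT-TP*, chrM:15956-16023).

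MT-TW: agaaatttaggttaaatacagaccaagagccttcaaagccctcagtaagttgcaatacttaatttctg

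MT-TT: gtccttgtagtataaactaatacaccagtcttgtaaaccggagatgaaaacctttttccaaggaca

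MT-TF: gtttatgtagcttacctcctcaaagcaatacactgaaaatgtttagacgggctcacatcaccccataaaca

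MT-TQ: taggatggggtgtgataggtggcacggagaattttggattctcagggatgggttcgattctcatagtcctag

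MT-TP: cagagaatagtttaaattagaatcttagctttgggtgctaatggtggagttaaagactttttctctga

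The tRNA with the largest response was *MT-TW*, the tryptophan tRNA that follows *MT-ND2* directly. Its raw counts were 12, 10 and 11 in DMSO-treated sgControl cells and 64, 46 and 45 in abemaciclib, a log2 fold change of 2.49 ± 0.42 (adjusted p = 1.35e-08). In knockout cells *MT-TW* had 3, 7 and 8 counts in DMSO and 26, 19 and 24 in abemaciclib (1.79 ± 0.50, adjusted p = 0.00193). *MT-TT*, the threonine tRNA that follows *MT-CYB* directly, rose by 2.27 ± 0.22 in sgControl cells (adjusted p = 1.6e-23) and 1.64 ± 0.23 in knockout cells (adjusted p = 5.79e-11). Both were above the response of the mRNA beside them.

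*MT-TL1*, a leucine tRNA between *MT-RNR2* and *MT-ND1*, had the highest level of the tRNAs, at 53.7 CPM per kilobase over all libraries. Its raw counts were 141, 141 and 187 in DMSO-treated sgControl cells and 333, 390 and 332 in abemaciclib. In knockout cells they were 95, 110 and 111 in DMSO and 366, 277 and 282 in abemaciclib. *MT-TL1* rose by 1.42 ± 0.16 in sgControl cells (adjusted p = 7.99e-18) and 1.39 ± 0.17 in knockout cells (adjusted p = 5.71e-15), close to *MT-RNR2* before it in the first but not in the second. *MT-TL2*, the other leucine tRNA, had 1 count in 1 of 12 libraries.

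*MT-TF*, the phenylalanine tRNA at the head of the rRNAs, was the tRNA that passed the interaction test. Its raw counts were 16, 33 and 27 in DMSO-treated sgControl cells, 52, 102 and 97 in abemaciclib, 19, 14 and 9 in knockout cells in DMSO, and 21, 12 and 22 in abemaciclib. *MT-TF* rose by 1.94 ± 0.37 in sgControl cells (adjusted p = 7.61e-07), and its log2 fold change in knockout cells was 0.20 ± 0.44 (adjusted p = 0.787). The difference of -1.73 ± 0.57 (adjusted p = 0.00754) lost its call without knockout DMSO replicate 1 (adjusted p = 0.0659). The other tRNAs that rose in sgControl cells were *MT-TV*, *MT-TD* and, on the light strand, *MT-TY* and *MT-TS1*. *MT-TY* had 3 to 22 raw counts in all libraries, and its call (adjusted p = 0.0215) was lost without DMSO replicate 1 or 3 or abemaciclib replicate 1 or 2, and when only the groups compared were fitted with the replicate block, with an adjusted p of up to 0.135. *MT-TD* lost its call without DMSO replicate 1 or abemaciclib replicate 3 (up to 0.115). *MT-TY* and *MT-TS1* lie on the strand opposite *MT-CO1*. In forward-strand coordinates *MT-TS1* lies directly after *MT-CO1* and *MT-TY* shortly before it.

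Of 10 heavy-strand tRNAs tested in sgControl cells, 6 rose. *MT-TI* (0.87 ± 0.45, adjusted p = 0.0965), *MT-TM* (0.43 ± 0.41, adjusted p = 0.412), *MT-TK* (1.13 ± 1.42) and *MT-TS2* (0.57 ± 1.32) did not pass. *MT-TI* passed without DMSO replicate 1 (adjusted p = 0.00277). The light-strand tRNAs other than *MT-TY* and *MT-TS1* did not pass either. *MT-TQ*, the glutamine tRNA, had 69, 70 and 50 raw counts in DMSO-treated sgControl cells and 49, 47 and 50 in abemaciclib (log2 -0.17 ± 0.30, adjusted p = 0.68). In knockout cells *MT-TQ* had 34, 76 and 50 counts in DMSO and 76, 69 and 85 in abemaciclib. *MT-TP*, the proline tRNA that faces *MT-TT*, had 69, 79 and 59 in DMSO-treated sgControl cells and 44, 47 and 50 in abemaciclib (-0.35 ± 0.29, adjusted p = 0.343), and 32, 65 and 36, then 55, 55 and 51, in knockout cells. *MT-TE*, the glutamate tRNA beside *MT-ND6*, had a log2 fold change of 0.22 ± 0.34 (adjusted p = 0.643). *MT-TA* had 0.36 ± 0.41, *MT-TN* 0.12 ± 0.91 and *MT-TC* 1.13 ± 0.81, and the last 2 never exceeded 12 raw counts. At these counts the SEs of the light-strand tRNAs, from 0.29 to 0.91 in log2 units, limit what could be detected. In the interaction the extreme values among the tRNAs, *MT-TS2* at the top and *MT-TY* at the bottom, did not pass either; *MT-TS2* held 0 to 5 raw counts.

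The responses of 10 members differed between the genotypes, of 33 tested. *MT-ND6* had the larger response in knockout cells, and 9 members had the smaller one there: *MT-TF*, *MT-RNR1*, *MT-RNR2*, *MT-ND1*, *MT-ND2*, *MT-CO1*, *MT-ND4L*, *MT-ND4* and *MT-ND5*. Over all genes tested 21.1% were higher and 20.3% lower in this test, and 41.4% passed in either direction. Thus 1 of 9 light-strand and 9 of 24 heavy-strand transcripts tested passed, in opposite directions, with medians of 0.42 and -0.62. The light-strand median is the value of *MT-TN* (0.42 ± 1.28), which had 1 to 11 raw counts. The 8 light-strand tRNAs alone ranged from -1.89 to 0.55, with a median of -0.12, and 0 passed. *MT-ND6* was thus the only light-strand transcript that passed. Whether the direction goes with the strand was not tested. The 12 heavy-strand mRNAs ranged from -1.003 for *MT-ND1* to -0.01 for *MT-CYB*. *MT-ATP8* (-0.38 ± 0.17, adjusted p = 0.0574), *MT-ATP6* (-0.30 ± 0.25), *MT-CO3* (-0.32 ± 0.30) and *MT-CO2* (-0.10 ± 0.35) did not pass. With the replicate number as a block, *MT-ATP8* (-0.39, adjusted p = 0.00570) and *MT-ATP6* (-0.33, adjusted p = 0.0461) passed. *MT-ATP8* also passed with the filter of 10 counts in 3 libraries and without sgControl DMSO replicate 2 or sgControl abemaciclib replicate 3, and *MT-ATP8*, *MT-ATP6* and *MT-CO3* passed without knockout abemaciclib replicate 1. The difference for *MT-ND4* (-0.47 ± 0.19, adjusted p = 0.0322) was lost with total-count size factors (adjusted p = 0.0760) and without any 1 of 6 libraries, with an adjusted p of up to 0.109: sgControl replicates 1 and 3 in DMSO and 1 in abemaciclib, and knockout replicates 2 in DMSO and 2 and 3 in abemaciclib.

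The genotypes were also compared directly within each treatment, with the samples already described. In DMSO 6 of 29 members tested were higher in knockout than in sgControl cells and 0 were lower, where 19.2% of all genes were higher and 37.4% differed, so the share of members was near that of all genes. They were *MT-ND1*, *MT-ATP8*, *MT-ND4L*, *MT-ND4*, *MT-ND5* and *MT-CYB*, with log2 differences from 0.29 for *MT-ATP8* to 0.51 for *MT-ND4L*. This count was 2 without sgControl DMSO replicate 3, the library with the lowest mitochondrial share, and 2 without knockout DMSO replicate 2. It was 4 without sgControl replicate 1 or knockout replicates 1 or 3 in DMSO.

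In abemaciclib 8 members were lower in knockout cells and 3 were higher, of 33 tested, where 27.4% of all genes were lower, 28.5% higher and 55.9% different. The lower members were *MT-TF*, *MT-RNR1*, *MT-RNR2*, *MT-ND1*, *MT-ND2*, *MT-TW*, *MT-CO1* and *MT-ND5*, from -1.99 ± 0.39 for *MT-TF* to -0.27 ± 0.11 for *MT-ND5*. Besides *MT-ND6*, *MT-TQ* (0.82 ± 0.30, adjusted p = 0.0114) and *MT-CYB* (0.37 ± 0.13, adjusted p = 0.011) were higher. With the replicate number as a block, 10 were lower, since *MT-ND3* (-0.56, adjusted p = 0.0198) and *MT-TT* (-0.42, adjusted p = 0.045) then passed too. In a fit of only the abemaciclib samples with the block, 9 were lower, and *MT-TT* did not pass. The lower count was 5 without sgControl abemaciclib replicate 1 or without knockout abemaciclib replicate 2 or 3, where *MT-RNR2*, *MT-TW* and *MT-ND5* lost their calls. *MT-ND5* also lost its call with total-count size factors, when only the groups compared were fitted and without sgControl DMSO replicate 1 (adjusted p up to 0.193). *MT-CYB* lost its call when only the groups compared were fitted and without sgControl replicate 3 or knockout replicate 1 in abemaciclib (adjusted p up to 0.163), and *MT-TQ* without sgControl replicate 2 in abemaciclib (0.0562).

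Subunits of the same complexes encoded in the nucleus rose and fell in sgControl cells at shares near those of all genes. Of 72 nuclear subunits of complexes I, III, IV and V, 17 rose and 20 fell, where 25.0% of all genes rose and 24.8% fell, and their median log2 fold change was -0.05. The mitochondrial subunits had medians of 1.07 for the 7 of complex I, 1.18 for the 3 of complex IV and 0.80 for the 2 of complex V, and a value of 0.66 for the 1 of complex III. In knockout cells 3 nuclear subunits rose and 15 fell, where 14.9% of all genes rose and 15.1% fell, with a median of -0.09, beside 0.57, 0.83, 0.46 and 0.65 for the mitochondrial subunits of complexes I, IV, V and III. For complex I, 9 of 37 nuclear subunits rose and 15 fell in sgControl cells; *NDUFV1*, the subunit that oxidises NADH, rose by 0.99 ± 0.07 (adjusted p = 1.13e-47), and *NDUFS6*, an accessory subunit, fell by 0.81 in log2 units (SE 0.12, adjusted p = 1.87e-11). For complex IV, 2 of 11 rose and 0 fell (median -0.03), with *COX6C* at 0.51 ± 0.10. For complex III 4 of 9 rose and 2 fell (median 0.16), for complex V 2 of 15 rose and 3 fell (median -0.06), and for complex II, which has no mitochondrial gene, 1 of 4 rose and 1 fell (median 0.04).

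Nuclear genes that act on mitochondrial DNA and RNA were described in 7 lists of 86 genes in all, of which 20 rose and 29 fell in sgControl cells (median -0.08), and 5 rose and 38 fell, of 85 tested, in knockout cells (median -0.20). The shares over all genes, 25.0% and 24.8% in sgControl and 14.9% and 15.1% in knockout cells, stand beside these counts and those of each list. *POLRMT*, the mitochondrial RNA polymerase, rose by 0.16 ± 0.06 in sgControl cells (adjusted p = 0.00676) and fell by 0.41 in knockout cells (SE 0.06, adjusted p = 1.1e-11), and these responses differed by -0.57 ± 0.08 (adjusted p = 3.03e-12). *TFAM*, which packages mitochondrial DNA and is needed for promoter use, fell by 0.53 in sgControl cells (SE 0.05, adjusted p = 8.39e-28) and had -0.10 ± 0.05 in knockout cells (adjusted p = 0.11). *TFB2M*, the factor that melts the promoters, had -0.05 ± 0.07 in sgControl cells (adjusted p = 0.598) and fell by 0.59 in knockout cells (SE 0.08, adjusted p = 7.2e-13). *TEFM*, the elongation factor, rose by 0.42 ± 0.09 in sgControl cells (adjusted p = 2.21e-06) and had 0.05 ± 0.09 in knockout cells (adjusted p = 0.772).

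Over the 10 genes of the transcription list, 4 rose and 3 fell in sgControl cells and 1 rose and 4 fell in knockout cells. Of 16 genes of RNA stability and decay, 3 rose and 6 fell in sgControl cells. *LRPPRC*, which protects heavy-strand mRNAs together with *SLIRP*, rose in both genotypes (0.24 ± 0.06, adjusted p = 0.000247; 0.43 ± 0.06, adjusted p = 5.76e-11). *SLIRP* fell by 0.45 in sgControl cells (SE 0.14, adjusted p = 0.00236) and had -0.20 ± 0.14 in knockout cells (adjusted p = 0.287). Among 18 genes of RNA processing and modification, 2 rose and 7 fell in sgControl cells; *TRMU*, a tRNA-modifying enzyme, fell by 1.04 (SE 0.08, adjusted p = 1.54e-37).

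Of 17 mitochondrial aminoacyl-tRNA synthetases, 5 rose and 4 fell in sgControl cells. In knockout cells 0 of 16 tested synthetases rose and 11 fell (median -0.28), where 14.9% of all genes rose and 15.1% fell. In the list of mtDNA replication 1 of 9 rose and 5 fell in sgControl cells, among them *SSBP1*, the single-stranded DNA-binding protein (fell by 0.78, SE 0.11, adjusted p = 1.3e-11). Of 10 translation factors 3 rose and 2 fell, and of 6 regulators of biogenesis 2 rose and 2 fell, including *NRF1*, a transcription factor of nuclear respiratory genes, which fell by 1.13 in sgControl cells (SE 0.08, adjusted p = 2.18e-43) and had -0.15 ± 0.08 in knockout cells (adjusted p = 0.14).

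Nuclear copies of mitochondrial genes can take up reads of the originals. The table held 408 rows named as such copies, with counts that came to 0.528% to 0.759% of the mitochondrial counts. Most belonged to *MTATP6P1* on chromosome 1 (633696 to 634376), which is 98.5% identical to *MT-ATP6* and had 10832 to 22959 counts, or 9.67% to 12.2% of those of *MT-ATP6*. Its log2 fold change of 0.79 in sgControl cells (adjusted p = 0.000953) was near that of *MT-ATP6*. *MTCO1P12* (98.6% identical to *MT-CO1*) and *MTND2P28* (98.2% identical to *MT-ND2*), also on chromosome 1, rose by 1.59 and 1.72 in sgControl cells, again near their mitochondrial counterparts, at 0.169% to 0.225% and 0.389% to 0.567% of their counts. Because the treatment of reads with several matches is not stated, values of these copies and of the genes they match cannot be fully told apart.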

How the data were processed

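The deposited values are raw read counts per gene that the authors made from 12 libraries: reads were trimmed with BBDuk, aligned to hg38 with STAR 2.7.5b and counted with featureCounts 2.0.1 against GENCODE. The labels name a directional whole-transcript kit, while the general methods of the study describe a 3′ kit. Strand setting, handling of multiply aligned or overlapping reads and RNA selection are not given in the sources used here.

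Of 60656 rows, 44 named NA were left out; they held 0% of the counts. Coordinates and strands came from GENCODE 44 on hg38. One DESeq2 1.42.0 model (R 4.3.3) with group as its factor covered all genes and 12 samples, with median-of-ratios size factors and no shrinkage. Its two-sided Wald tests, with Benjamini–Hochberg adjustment across the genes that passed independent filtering, gave all adjusted p-values, and calls were made under 0.05. Normalised counts are counts divided by size factors. Ratios and sums have SDs over 3 samples and no test. The study calls the samples biological replicates. Alternatives were edgeR 4.0.16 (TMM), total-count size factors, size factors without the mitochondrial genes, a filter of 10 counts in 3 libraries, fits of only the groups compared, the replicate number as a block and leaving out each sample. Same-numbered samples in abemaciclib deviated together from their group means over 11885 genes (correlations 0.15, 0.26 and 0.11). Elsewhere at least 1 pair stayed under 0.1. The numbers come from the sample titles. They entered only the alternative fits with the block, and the main tests, also those within abemaciclib, ignored any pairing.

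Tested on simulated data of 21983 genes, DESeq2 recovered 65.6% of genes changed by a log2 value of 1 and 77.9% of those changed by 2 for the sgControl response, and 55.2% and 71.2% for the interaction. False calls numbered 23 of 167 and 14 of 141, and with edgeR 11 of 151 and 5 of 124. For DESeq2 both shares were above the threshold of 0.05. The simulation changed 96 genes by 1 and 104 by 2, in the sgControl abemaciclib samples only. In the data 11305 genes were called in the sgControl response, so these figures do not carry over to it directly.

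Members, lists and tests were chosen with earlier results of these data known. Every member is reported by class, with values per library for those highest or lowest in level or response; of nuclear genes, each list gives its counts and at most the called genes with the largest and smallest sgControl response and a mean of at least 100 normalised counts, besides 6 chosen factors. One of the genes so picked is left out and not reported here. Intervals and SEs cover the spread between samples; counts of 3 or fewer were treated as not measurable.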

Additional observations from a re-analysis of the deposited data

Results flagged for a closer look

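Of the 33 members tested, 10 had responses to abemaciclib that differed between the genotypes in the interaction test (DESeq2 adjusted p under 0.05). Over all genes tested, 41.4% passed this test, 21.1% higher and 20.3% lower, so the share of members was not above that of all genes. The differences are log2 fold changes in *RB1*-knockout cells minus those in sgControl cells. They were -1.73 for *MT-TF*, -1.24 for *MT-RNR1*, -0.90 for *MT-RNR2*, -1.003 for *MT-ND1*, -0.95 for *MT-ND2*, -0.69 for *MT-CO1*, -0.57 for *MT-ND4L*, -0.47 for *MT-ND4* and -0.76 for *MT-ND5*. *MT-ND6* had the only positive value among these 10, 0.83. Groups of 3 samples were too small for the test of single samples that stand apart.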

How the results depend on the processing

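Limits: the tRNAs had few counts, the counting strand is not stated, and clone and genotype cannot be told apart. Counts of members called under each alternative were 20 to 22 higher in the sgControl response, 12 to 17 higher in the knockout response, and 1 higher and 6 to 12 lower in the interaction. With edgeR 22, 17, 1 and 9 were called, in that order. With total-count size factors the median gene moved to -0.12 in the sgControl response and 0.16 in the interaction, and 22, 15, 1 and 8 were called.

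With the replicate number as a block, 22 members were higher in the sgControl response, 16 in the knockout response and 7 in the DMSO comparison of genotypes, where edgeR called 5; 1 was higher and 11 lower in the interaction, and 3 and 10 in the abemaciclib comparison, so the block moved no count by over 1.5 times. Leaving out 1 sample in turn gave 2 to 7 higher members in the DMSO comparison and 5 to 10 lower members in the abemaciclib comparison.

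Of 96 member values over the 5 comparisons that had not passed the test, 32 had the other sign under at least 1 alternative, against 0 of 63 that had passed. Of those printed above, total-count size factors gave -0.058 for *MT-ND6* in the sgControl response, and 0.013 for *MT-CO2* and 0.12 for *MT-CYB* in the interaction. Without 1 sample, *MT-ND6* ranged from -0.022 to 0.18 and *MT-TQ* from -0.45 to 0.0020 in the sgControl response, *MT-TF* from -0.066 to 0.60 in the knockout response, and *MT-CO2* from -0.37 to 0.11 and *MT-CYB* from -0.17 to 0.13 in the interaction; the cause was not tested. The log2 difference of the ratio of *MT-ND6* to the heavy-strand mRNAs ranged from -1.30 to -1.10 in the sgControl response, from 1.34 to 1.54 in the interaction and from -0.20 to 0.0054 in the DMSO comparison. It moved most without sgControl DMSO replicate 1, whose ratio was the lowest of its group.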
